A study of Mus musculus with 24 samples.

Results

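Natural killer (NK) cells from tumour-bearing lung of wild-type (WT) mice were set against IL-15-treated splenic NK cells of WT mice. The comparison used 8 of the 24 RNA-seq libraries of the series: 4 of WT lung and 4 of WT IL-15 spleen, each labelled a biological replicate. The series also holds 4 libraries each of lung and IL-15 spleen NK cells from knockout (KO) mice, named in the series title as a study of FcRγ, the adaptor encoded by Fcer1g. Outside the WT comparison, those 8 KO libraries served to ask whether the lung against IL-15 change differed between genotypes. Naive spleen libraries entered neither main fit. KO and naive libraries also entered alternative fits that checked how the calls depend on the samples fitted. The labels give the tissue, cell type, genotype and treatment, and the treatment tag of the lung libraries reads naive. The mouse strain, sex and age, the tumour, the IL-15 dose and time, whether IL-15 was given to mice or to cells, and the sort were not stated in the labels. Organ, tumour and IL-15 differ between the groups, cell preparation may differ too, and their effects cannot be told apart.

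NK cells are innate lymphocytes that kill infected or transformed cells by releasing perforin and granzymes and that secrete interferon gamma and chemokines. IL-15 signals through the IL-2 receptor beta and common gamma chains, JAK1, JAK3 and STAT5, and is the main cytokine for NK cell survival, growth and division. NK cells in tissue circulate or stay, and their exit from lymphoid organs depends on the factor KLF2 and on receptors for sphingosine 1-phosphate. Many surface receptors of NK cells signal through adaptors that carry an immunoreceptor tyrosine-based activation motif (ITAM), among them FcRγ, CD3ζ and DAP12. Immediate early genes such as Fos and Junb are switched on within minutes of a stimulus and need no new protein.

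The lung and IL-15 libraries differed in 5587 of 12965 tested genes (43.1%) at an adjusted p under 0.05 in edgeR's quasi-likelihood test with Benjamini-Hochberg adjustment. Of these, 2881 (22.2% of those tested) were higher and 2706 (20.9%) were lower in WT lung. Counts of list members below are to be read against these shares. A change of at least 2-fold was seen in 1336 higher genes (10.3%) and 1380 lower genes (10.6%), and the libraries of the groups did not overlap for 41.0% of genes. The median log2 change over all tested genes was 0.003 with totals scaled by the trimmed mean of M-values (TMM) and −0.2 with plain library totals. With plain totals the calls were 2019 higher and 3707 lower, so small shifts near 0 depend on this scaling. Levels below are CPM, counts scaled to a common library total after TMM, each log2 change is WT lung over WT IL-15 spleen, and n is 4 libraries in each group.

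**Figure D1:**
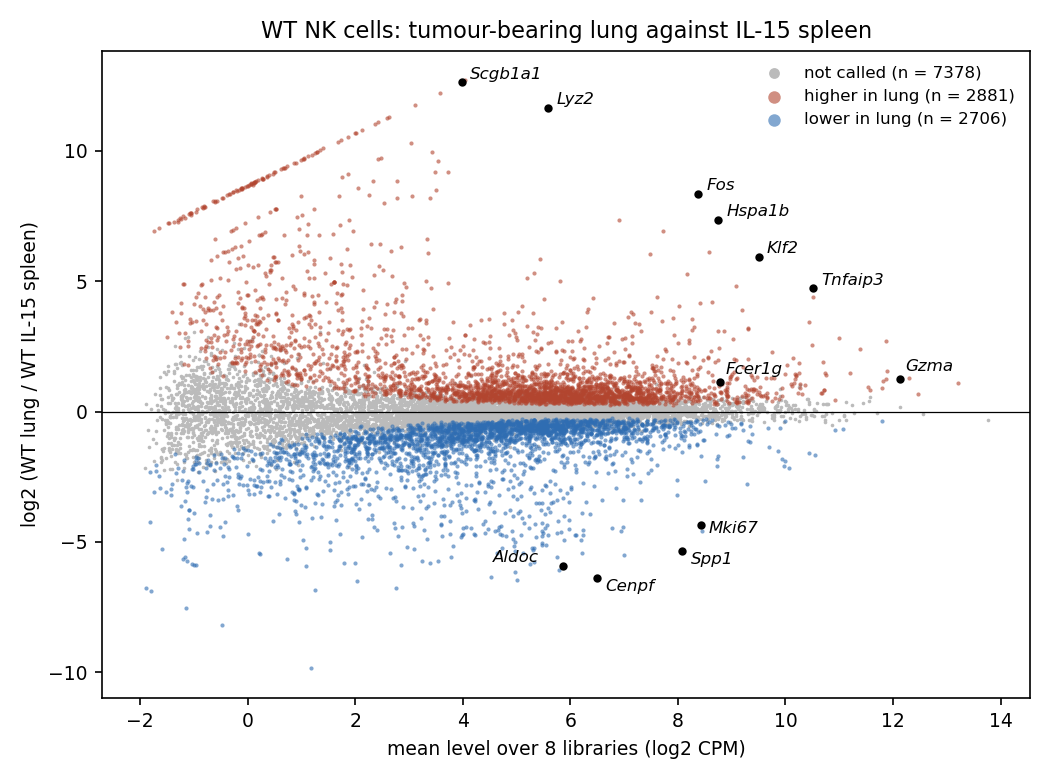
Each point is a tested gene: the horizontal axis is its mean level over the 8 libraries (log2 CPM) and the vertical axis its log2 change, WT lung over WT IL-15 spleen. The 2881 genes called higher in lung are red, the 2706 called lower are blue.

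Library totals were 9.77 to 27 M counts in WT lung and 21.2 to 30.5 M counts in WT IL-15 spleen. A first principal component with 75.6% of the variance separated the groups, and a second with 15.6% set WT lung replicate 1 (38.9) and WT IL-15 replicate 2 (33.2) apart from the other 6 libraries (−19.1 to 0.697). These are the shallowest libraries of their groups, and in both genes with under 1.5 kb of exon stood above their group's mean, by a median of 0.5 and 0.37 log2 units. Without both libraries 3893 genes were higher and 3657 lower. Leaving out a library at a time gave 2442 to 3276 higher and 2144 to 3015 lower genes.

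Fcer1g, the gene named by the study, had 764, 595, 494 and 566 CPM in WT lung, against 263, 329.6, 263 and 256 CPM in WT IL-15 spleen. Every lung library was above every IL-15 library, and the log2 change was 1.12 ± 0.16 (SE; adjusted p = 2.38e-04). Its KO values were 16.5, 15, 13 and 13.3 CPM in lung, against 6.07, 3.97, 8.21 and 4.67 CPM in KO IL-15 spleen, far below every WT library. The genotype labels read only WT or KO and do not name the gene.

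The labelled cell type was checked against 12 NK cell markers, all of which were tested. Their summed level ranged from 13039.5 to 17719.5 CPM in WT lung and from 7673 to 9191 CPM in WT IL-15 spleen. Ncr1, which encodes the receptor NKp46, stood at 512 CPM in lung against 422 CPM in IL-15 spleen and Klrb1c, which encodes NK1.1, at 1095 CPM in lung against 1127 CPM in IL-15 spleen, neither called different. Of the 12 markers 8 were higher in lung, with Gzma, Nkg7, Prf1 and Tbx21 among them, and 0 were lower.

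Markers of several other cell types summed to more in every lung library than in any IL-15 library, and others overlapped between the groups. The summed macrophage and monocyte markers were 88.2 to 199 CPM in WT lung and 18.7 to 23.9 CPM in WT IL-15 spleen, led by Lyz2 (96.5 CPM in lung against 0.0266 CPM in IL-15 spleen) and Chi3l3 (33 CPM in lung against 0 CPM in IL-15 spleen), while Cd68 went the other way (5.11 CPM in lung against 20.5 CPM in IL-15 spleen). Neutrophil markers summed to 4.0 to 26.5 CPM in WT lung and 0 to 0.182 CPM in WT IL-15 spleen, with S100a9 at 5.29 CPM in lung against 0 CPM in IL-15 spleen. Fibroblast and smooth muscle markers summed to 9.13 to 29.9 CPM in WT lung and 0.303 to 0.604 CPM in WT IL-15 spleen. Platelet markers, mostly Gp1bb in lung, summed to 17.1 to 34.2 CPM in WT lung and 0.634 to 1.37 CPM in WT IL-15 spleen. Among endothelial markers, Cldn5, Cdh5, Ramp2 and Vwf averaged 23.8 CPM in lung against 0 CPM in IL-15 spleen, 16.5 CPM in lung against 0.00765 CPM in IL-15 spleen, 11.2 CPM in lung against 0.00765 CPM in IL-15 spleen and 10.8 CPM in lung against 0.00757 CPM in IL-15 spleen, while Pecam1 and Calcrl were present in both groups. Among lung epithelial markers, Scgb1a1 (31.8 CPM in lung against 0 CPM in IL-15 spleen) and Sftpc (7.95 CPM in lung against 0 CPM in IL-15 spleen) were found in lung alone.

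The T cell genes Cd4 and Cd8a averaged 0.239 CPM in lung against 0 CPM in IL-15 spleen and 0.545 CPM in lung against 0 CPM in IL-15 spleen. Cd3e, at 2.02 CPM in lung against 0.335 CPM in IL-15 spleen, was called higher in lung. Cd3d averaged 8.25 CPM in lung against 3.44 CPM in IL-15 spleen, and Cd3g 4.01 CPM in lung against 2.12 CPM in IL-15 spleen. Of 8 tested T cell markers 2 were called higher and 1 lower. Nearly all of the mast cell and basophil sum was Cma1 (350.0 CPM in lung against 5.32 CPM in IL-15 spleen). Gata2 was also higher (3.84 CPM in lung against 0.0229 CPM in IL-15 spleen), Cpa3 (0.0398 CPM in lung against 2.28 CPM in IL-15 spleen) and Mcpt8 (0.0101 CPM in lung against 1.02 CPM in IL-15 spleen) were lower, and the other 6 of the 10 genes, among them Fcer1a, Tpsab1 and Tpsb2, had no count in either group. Exact permutation tests of the 15 marker sums gave 0.0286, the smallest p that 4 against 4 libraries allows, for 7 lists. All 7 had an adjusted p of 0.0612 over the 15 tests, so no sum passed. Several sums overlapped between the groups: T cell markers at 296 to 404 CPM in lung against 247 to 335 CPM in IL-15 spleen, B cell markers at 115 to 146 CPM in lung against 125 to 141 CPM in IL-15 spleen and dendritic cell markers at 507 to 607 CPM in lung against 438 to 573 CPM in IL-15 spleen. The same held for lung epithelial markers at 76.2 to 158 CPM in lung against 58.9 to 87.6 CPM in IL-15 spleen, endothelial markers at 129.9 to 244 CPM in lung against 127 to 149.5 CPM in IL-15 spleen, plasma cell markers at 0.768 to 74.3 CPM in lung against 0.999 to 2.47 CPM in IL-15 spleen and erythroid markers at 0.343 to 20.2 CPM in lung against 0 to 0.423 CPM in IL-15 spleen. Markers of innate lymphoid cells of types 2 and 3 summed to 263 to 399 CPM in lung against 83.6 to 111 CPM in IL-15 spleen, most of it Klrg1 and Gata3, which NK cells express too. The leading genes of the overlapping lists were Trbc1 (173 CPM in lung against 158 CPM in IL-15 spleen), Ighm (111 CPM in lung against 132 CPM in IL-15 spleen), Itgax (442 CPM in lung against 468 CPM in IL-15 spleen) and Napsa (40.2 CPM in lung against 58.4 CPM in IL-15 spleen). Sparc led the fibroblast list (7.27 CPM in lung against 0.00757 CPM in IL-15 spleen) and Hba-a2 the erythroid list (3.6 CPM in lung against 0.0151 CPM in IL-15 spleen). Igj, among plasma cell genes, averaged 3.74 CPM in lung against 0.221 CPM in IL-15 spleen, but this came from lung replicate 1. It had 13.8, 0.814, 0 and 0.314 CPM in WT lung, against 0.0605, 0.64, 0.0612 and 0.121 CPM in WT IL-15 spleen. The part of these cells in the lung values below was not tested.

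**Figure D2:**
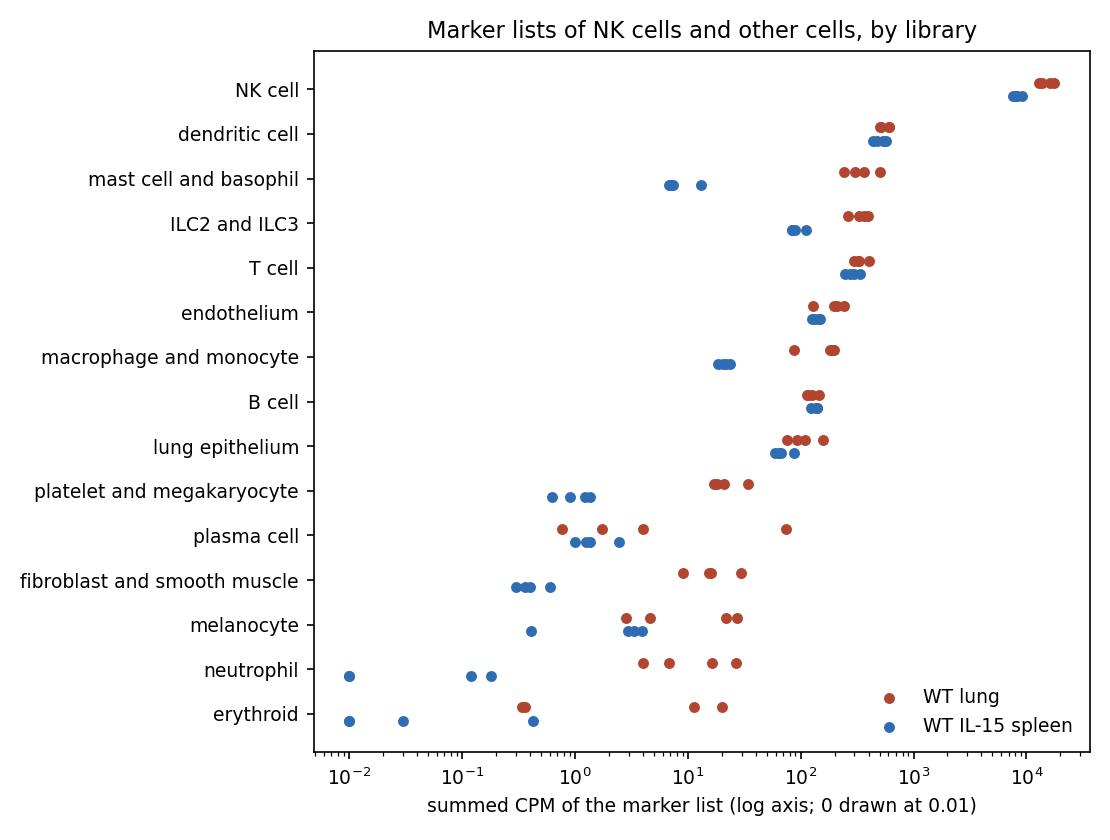
Summed CPM of each marker list (horizontal axis, log scale) in each WT lung library (red, upper) and WT IL-15 library (blue, lower). NK cell markers are the highest sum in both groups, and the macrophage, neutrophil, platelet, fibroblast, mast cell and innate lymphoid sums do not overlap between groups.

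The largest changes were ranked without markers of other cell types, predicted genes and receptor segments. The ranking took the other tested genes that were called, with at least 10 CPM and no overlap. Its 12 largest rises were Hpgd, Tmem100, Clec14a, Fmo1, Cyp4b1, Cd36, Aqp1, Cav1, Gpr116, Sdpr, Col4a1 and Acvrl1. Several of them are known from lung vessels and stroma, such as Cav1, the coat protein of caveolae, Aqp1, a water channel, and Acvrl1, a receptor of endothelial cells. They were low in lung, with means of 10.1 to 26.5 CPM, and at or near 0 under IL-15. Hpgd, which inactivates prostaglandins, had 21.3, 17, 8.08 and 22.7 CPM in WT lung, against 0, 0, 0 and 0 CPM in WT IL-15 spleen, at least 664-fold higher against a floor of 3 counts over the IL-15 group. Some of the markers left out rose more: Chi3l3, Scgb1a1 and Cldn5 by at least 1349-, 1073- and 815-fold against the same floor. In bulk RNA, fewer cells of a type and less RNA per cell cannot be told apart.

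Because of those low genes, the rises among genes with at least 100 CPM in lung are given as well, a limit chosen after the values were seen. Other-cell markers were again left out, among them Cma1 (350.0 CPM in lung, log2 change 6.05). The 12 largest rises were Fos, Hspa1b, Fosb, Hspa1a, Dusp1, Klf2, Ppp1r15a, Plk2, Nr4a1, Tnfaip3, Ly6c2 and Junb, with log2 changes of 8.34 to 4.38. The 12 largest falls in the first ranking had log2 changes of −6.75 to −5.73. They were Ak4, Fam64a, Cenpf, Kif2c, Gpr141, Aspm, Aldoc, Cdc25c, Hmmr, Pif1, Nek2 and Iqgap3. Most of these act in cell division. Ak4, an adenylate kinase of mitochondria, Aldoc, a glycolytic aldolase, and Gpr141, an orphan receptor, do not.

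**Figure D3:**
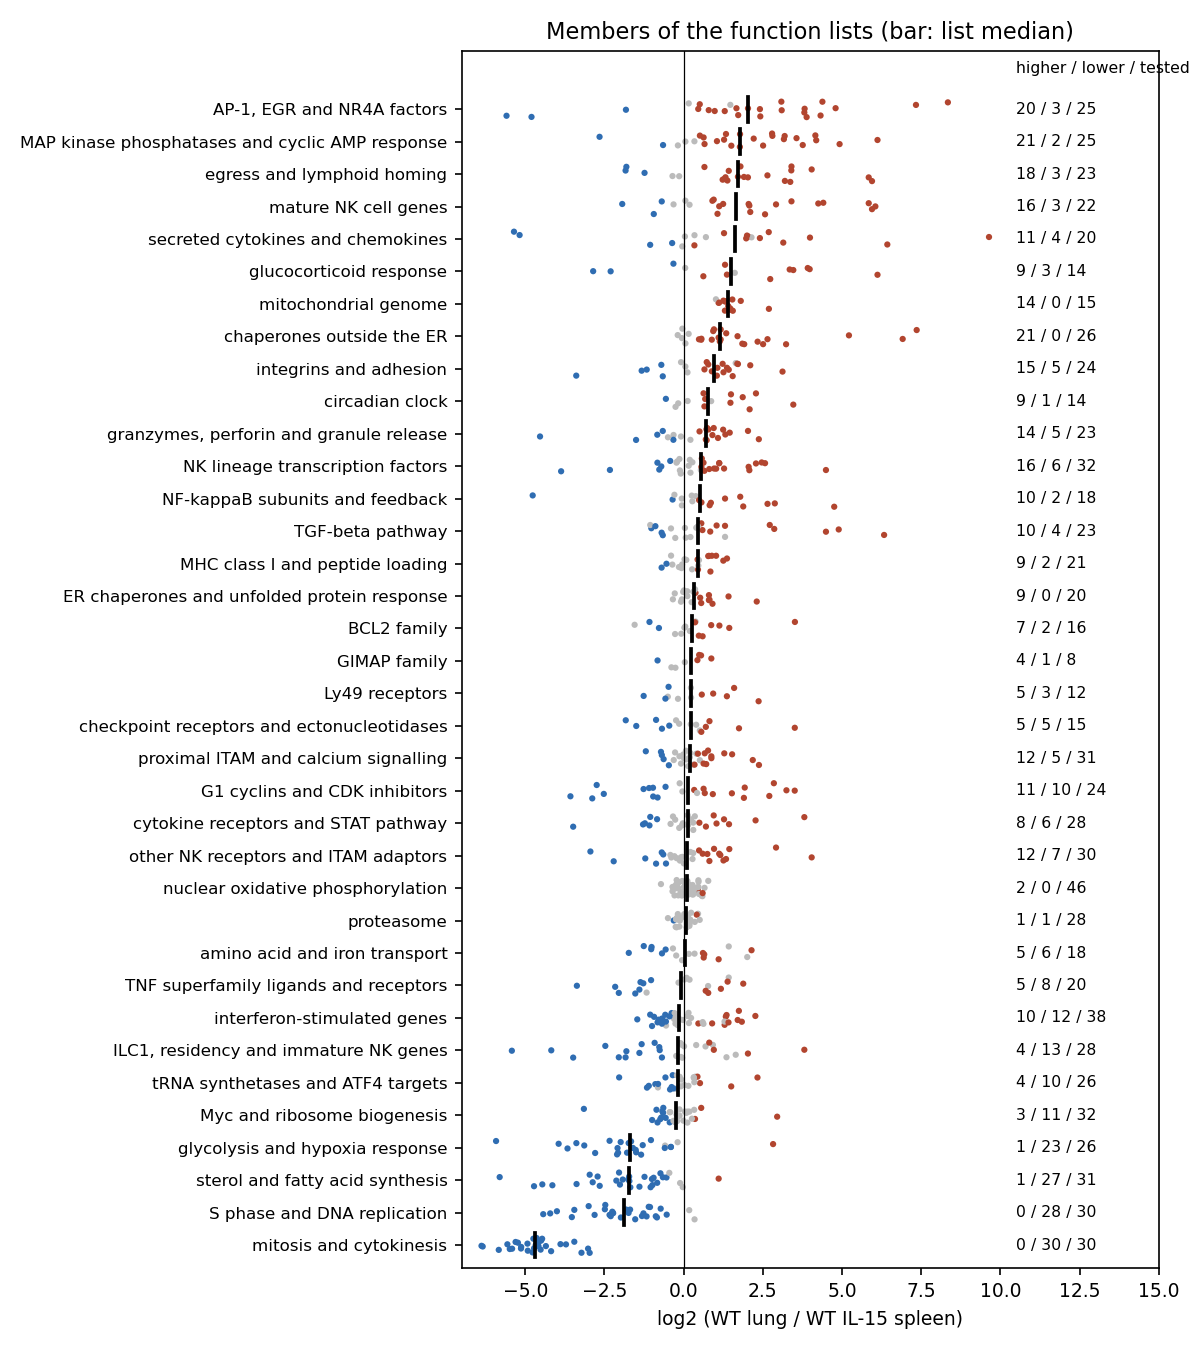
Each point is a tested gene of a function list, placed by its log2 change (horizontal axis, WT lung over WT IL-15 spleen). Red points were called higher, blue lower and grey not called, the black bar is the list median, and the numbers give higher, lower and tested genes. The lists of cell division, sterol synthesis and glycolysis lie to the left and those of immediate early factors to the right.

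Cell division genes were lower in WT lung almost throughout. All 30 mitosis and cytokinesis genes were lower in WT lung, with a median log2 change of −4.7 (all tested genes, 0.003; 20.9% of them lower). Mki67, which encodes the proliferation antigen Ki-67, had 21.7, 22.7, 51.9 and 31.6 CPM in WT lung, against 657, 497, 838 and 629 CPM in WT IL-15 spleen. Every lung library was far below every IL-15 library, and the log2 change was −4.35 ± 0.31 (SE; adjusted p = 2.18e-06). Ccna2, the cyclin of S phase and mitotic entry, stood at 5.67 ± 1.9 CPM in WT lung and 252 ± 19.5 CPM in WT IL-15 spleen (mean ± SD), a log2 change of −5.49 ± 0.25 (SE; adjusted p = 1.19e-07). Top2a, which untangles DNA before division, had a log2 change of −4.59 ± 0.26, and Cenpf, a kinetochore protein, −6.38 ± 0.35. The smallest fall in the list was that of Aurka, a spindle kinase, at −2.97 ± 0.19. Bub1b, of the spindle checkpoint, Tpx2, which organises the spindle, and Ccnb2, a mitotic cyclin, changed by −4.52 ± 0.15, −4.93 ± 0.18 and −4.92 ± 0.19.

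In the S phase and DNA replication list, 28 of 30 genes were lower and 0 were higher, with a median of −1.9. Rrm2, the small subunit of ribonucleotide reductase, had 8.22, 10.1, 14.8 and 11 CPM in WT lung, against 236, 251, 246 and 234 CPM in WT IL-15 spleen, with a log2 change of −4.43 ± 0.18 (SE; adjusted p = 7.3e-08). Tk1, thymidine kinase, changed by −4.0 ± 0.17 and Mcm10, an origin-firing factor, by −4.21 ± 0.22. Cdc6, which loads the helicase, changed by −3.53 ± 0.16. The subunits of the replicative helicase had smaller falls, Mcm5 at log2 −1.53 ± 0.1 and Mcm6 at −0.88 ± 0.11, and Mcm6 still had 198, 181, 201 and 166 CPM in lung. Cdt1 and Rpa2 did not pass the test.

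The G1 cyclins and inhibitors were divided, with 11 of 24 higher and 10 lower in WT lung. Ccne2, a cyclin of S phase entry, had a log2 change of −3.58 ± 0.25 and Cdk6 of −1.27 ± 0.17, while Cdkn2c, the INK4 inhibitor p18, also fell, at −2.89 ± 0.14 (15.5 CPM in lung against 114 CPM in IL-15 spleen). The antiproliferative genes Btg1 and Tob1 rose. Btg1 had 2608, 2679.7, 2593 and 2579 CPM in WT lung, against 696, 681, 701 and 720.5 CPM in WT IL-15 spleen, a log2 change of 1.9 ± 0.11 (SE; adjusted p = 4.93e-07). The inhibitor Cdkn1b (p27) and cyclin Ccnd3 were modestly higher, at 0.63 ± 0.12 and 0.67 ± 0.13 (Ccnd3 not with an offset for gene length and GC content). The stress gene Gadd45b rose by 3.24 ± 0.19 and the cyclin Ccne1 fell, with −2.52 ± 0.22.

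Promoter sequence was compared with this ordering in RefSeq (build GRCm38.p6), over the 250 bases before each start. The cell cycle homology region (CHR) was searched as TTTGAA or TTCGAA on both strands. It was found in 11 of the 25 mitosis genes with an entry (44.0%) and in 19.6% of 27025 genes with an entry, or 14.7% of the 8668 of them that were tested. The E2F motif was searched as TTTCCCGC, TTTGGCGC, TTTCGCGC or TTTGCCGC. It was found in 7 of 25 S phase genes (28%), in 1 of 25 mitosis genes (4.00%) in 2.16% of all and in 4.11% of tested genes. CCAAT was in 72.0% of mitosis genes, 68.0% of S phase genes, 37.5% of all and 40.8% of tested genes. These are descriptions of letters, not of binding. The stretches below, printed 5′ to 3′ with the matches in capitals, show both kinds: CHR in Cdk1, the mitotic kinase, and Cdc20, an activator of the anaphase complex, and overlapping E2F matches in Mcm5 and Mcm6.
Cdk1 (chr10:69352913-69353023, minus strand): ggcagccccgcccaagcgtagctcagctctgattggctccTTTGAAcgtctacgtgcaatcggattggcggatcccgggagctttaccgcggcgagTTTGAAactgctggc
Cdc20 (chr4:118437344-118437401, minus strand): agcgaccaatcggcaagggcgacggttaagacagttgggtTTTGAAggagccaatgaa
Mcm5 (chr8:75109316-75109407, plus strand): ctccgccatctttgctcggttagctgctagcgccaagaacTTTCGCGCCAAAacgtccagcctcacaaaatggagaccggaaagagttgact
Mcm6 (chr1:128359706-128359855, minus strand): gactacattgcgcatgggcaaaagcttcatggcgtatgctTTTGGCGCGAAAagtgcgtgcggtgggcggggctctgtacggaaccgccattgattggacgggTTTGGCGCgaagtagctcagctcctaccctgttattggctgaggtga
Of the genes shown, Cdk1 changed by log2 −4.19 ± 0.26 and Cdc20 by −4.67 ± 0.19, against the values of Mcm5 and Mcm6 given above.

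Sterol and fatty acid synthesis was lower in WT lung almost throughout, with 27 of 31 tested genes lower, 1 higher and a median of −1.71. Hmgcs1, which makes the precursor of mevalonate, had 41.8, 44.8, 40.3 and 39.2 CPM in WT lung, against 282, 283, 259 and 268 CPM in WT IL-15 spleen, and the libraries within each group lay close together. Its log2 change was −2.72 ± 0.1 (SE; adjusted p = 6.29e-08). Sqle, squalene epoxidase, stood at 3.36 ± 1.06 CPM in WT lung and 71.9 ± 10.1 CPM in WT IL-15 spleen (mean ± SD), a log2 change of −4.46 ± 0.23 (SE; adjusted p = 2.56e-07). The regulator Srebf2 was also lower (−2.04 ± 0.13), as was Idi1 (−3.38 ± 0.13). Cyp51, which demethylates lanosterol, changed by −2.87 ± 0.13. Acss2, which makes acetyl-CoA from acetate, was the gene that rose, at 1.1 ± 0.14 (98.6 CPM in lung against 45.9 CPM in IL-15 spleen), while Acly, Ebp and Scd1 did not pass. The sterol element TCACNCCAC was found upstream of 1 of 22 sterol genes with an entry, Hmgcs1, of 1.22% of all and of 1.25% of tested genes, and CCAAT upstream of 81.8% of the sterol genes.
Hmgcs1 (chr13:119690174-119690262, plus strand): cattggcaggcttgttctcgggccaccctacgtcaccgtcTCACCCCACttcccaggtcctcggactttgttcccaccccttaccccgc

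Glycolysis and hypoxia-response genes fell with a median of −1.7, 23 of 26 being lower and 1 higher. Enzymes from hexose phosphate to lactate fell together: Gpi1 (−1.74 ± 0.13), Aldoa (−2.1 ± 0.14), Tpi1 (−2.07 ± 0.18), Gapdh (−1.5 ± 0.14), Pgk1 (−2.79 ± 0.17), Pgam1 (−1.29 ± 0.12), Eno1 (−1.66 ± 0.13), Pkm (−1.6 ± 0.14) and Ldha (−1.34 ± 0.17). Pgk1, phosphoglycerate kinase, had 201, 147, 152 and 133 CPM in WT lung, against 1155, 1213, 868 and 1147 CPM in WT IL-15 spleen, a log2 change of −2.79 ± 0.17 (SE; adjusted p = 7.84e-07). The brain-type aldolase Aldoc went further, with 2.86, 1.54, 1.5 and 2.04 CPM in WT lung, against 111, 117, 112 and 118 CPM in WT IL-15 spleen and a log2 change of −5.92 ± 0.2 (SE; adjusted p = 2.89e-08). Pdk1, which keeps pyruvate out of the mitochondrion, changed by −3.95 ± 0.2, and Slc16a3, a lactate exporter, by −3.39 ± 0.15. The glucose transporter Slc2a1 changed by −0.4 ± 0.11 and Slc2a3 and P4ha1 did not pass. Vegfa, the vascular growth factor and a hypoxia target too, rose instead: it had 186, 241, 259 and 227 CPM in WT lung, against 31.5, 31.1, 32.5 and 33.9 CPM in WT IL-15 spleen, a log2 change of 2.82 ± 0.13 (SE; adjusted p = 1.08e-07).

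Transcripts for the respiratory chain did not follow. Of 46 nuclear genes of oxidative phosphorylation, 2 were higher (Cycs and Cyc1, named because they are few) and 0 lower, with a median of 0.11, against 43.1% of all genes called. Cyc1 did not pass without any 1 of 6 libraries. Without the 2 shallow libraries 13 were higher and 4 lower, without IL-15 replicate 2 alone 8 and 1, without lung replicate 1 alone 1 and 3, without lung replicate 3 alone 4 and 0, and with plain totals 1 was higher and 7 lower. Of the 15 genes of the mitochondrial genome 14 rose, with a median of 1.41. The ribosomal RNAs mt-Rnr2 and mt-Rnr1 changed by 2.69 ± 0.21 and 1.3 ± 0.19 and mt-Atp6 by 1.54 ± 0.25. The mitochondrial share of all counts was 3.17 to 6.14% in WT lung and 1.76 to 2.78% in WT IL-15 spleen (exact permutation p = 0.0286, adjusted p = 0.114 over 4 library measures). That share is made of the counts of these same genes, so it is no separate evidence of their rise. It also tracks RNA quality, whose part was not tested. Without mitochondrial genes 2903 genes were higher and 2668 lower.

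In the Myc and ribosome biogenesis list 11 of 32 were lower and 3 higher (6 without the 2 shallow libraries), with a median of −0.24. Myc itself had 120.4, 93.1, 99.9 and 97 CPM in WT lung, against 149, 151, 173 and 170.4 CPM in WT IL-15 spleen, a log2 change of −0.65 ± 0.12 (SE; adjusted p = 0.00134). Its antagonist Mxd1 rose: 329, 445, 505 and 452 CPM in WT lung, against 56.9, 52.4, 58.3 and 56.2 CPM in WT IL-15 spleen, a log2 change of 2.95 ± 0.15 (SE; adjusted p = 1.94e-07). The nucleolar proteins Npm1 and Ncl were lower, at −0.86 ± 0.16 and −0.64 ± 0.14. Mycn (−3.15 ± 0.48) and Utp20 (−1.0 ± 0.15) also fell, and Bop1 (0.55 ± 0.1) and Ubtf (0.36 ± 0.09) rose. With the length and GC offset Ncl, Bop1 (0.22) and Ubtf did not pass, nor did Ubtf with plain totals, in the fit of all 24 libraries or with the replicate block. Of 18 amino acid and iron transporters 5 were higher (3 without lung replicate 4, IL-15 replicate 1 or IL-15 replicate 4) and 6 lower. Over all tested genes the shares were 22.2% higher and 20.9% lower. Tfrc, the transferrin receptor, fell (−1.73 ± 0.16), and so did the light chain Slc7a5 (−1.02 ± 0.2), but its heavy chain Slc3a2 rose, with 319 CPM in lung against 72.3 CPM in IL-15 spleen and a log2 change of 2.14 ± 0.12 (SE; adjusted p = 5.02e-07). Slc38a2 (1.1 ± 0.17) and the ferritin gene Ftl1 (0.61 ± 0.18) rose, and Slc29a1 (−1.26 ± 0.16) and Slc38a1 (−1.01 ± 0.19) fell. Ftl1 did not pass with plain totals or without IL-15 replicate 4. In the list of tRNA synthetases and ATF4 targets 10 of 26 were lower and 4 higher, with 5 lower without lung replicate 2, lung replicate 4 or IL-15 replicate 1. The stress factors Atf4 (1.5 ± 0.12) and Ddit3 (2.33 ± 0.27) were among those that rose, while the serine synthesis gene Psat1 (−1.16 ± 0.12) and the asparagine synthetase Asns (−2.04 ± 0.43) fell. Vars (−0.9 ± 0.1) and Mthfd2 (−1.1 ± 0.2) were lower and Wars (0.44 ± 0.11) higher (not with plain totals).

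Immediate early factors were higher in WT lung. Of 25 AP-1, EGR and NR4A genes 20 rose and 3 fell, with a median of 2.03 (all tested genes, 0.003; 22.2% of them higher). Fos had 712, 623, 677 and 643 CPM in WT lung, against 1.88, 2.79, 2.2 and 1.39 CPM in WT IL-15 spleen. No lung library was below 623 CPM and no IL-15 library above 2.79, a log2 change of 8.34 ± 0.23 (SE; adjusted p = 9.77e-09). Fosb, a second partner of the AP-1 dimer, stood at 237 ± 42.1 CPM in WT lung and 1.5 ± 0.639 CPM in WT IL-15 spleen (mean ± SD), a log2 change of 7.33 ± 0.3 (SE; adjusted p = 8.25e-08). Junb was abundant, with 3788, 2631, 2499 and 2263 CPM in WT lung, against 135, 168, 112 and 120.4 CPM in WT IL-15 spleen and a log2 change of 4.38 ± 0.22 (SE; adjusted p = 2.08e-07). Nr4a1, an orphan nuclear receptor induced by antigen receptor and other signals, had 1088, 1030.2, 1099 and 944 CPM in WT lung, against 37.7, 39.4, 38.5 and 34 CPM in WT IL-15 spleen, a log2 change of 4.8 ± 0.13 (SE; adjusted p = 9.77e-09), and Nr4a2 changed by 3.82 ± 0.28.

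Egr2 and Egr3, which antigen receptor signalling also induces, went the other way. Egr3 had 1.31, 1.03, 1.01 and 1.06 CPM in WT lung, against 26.1, 18.4, 46 and 30.1 CPM in WT IL-15 spleen, so it was lower in every lung library, with a log2 change of −4.8 ± 0.31 (SE; adjusted p = 1.07e-06). Egr2 was lower as well, at 18.2 CPM in lung against 64 CPM in IL-15 spleen and −1.82 ± 0.16 (SE; adjusted p = 1.14e-05). Irf4, a factor that in lymphocytes scales with receptor signalling, fell too: 4.41, 4.11, 2.67 and 1.57 CPM in WT lung, against 43.6, 34.3, 45.3 and 56.9 CPM in WT IL-15 spleen, a log2 change of −3.87 ± 0.31 (SE; adjusted p = 4.74e-06). Fosl1 also fell, with a mean under 1 CPM in both groups.

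Feedback inhibitors of signalling rose with Fos. Among MAP kinase phosphatases and cyclic AMP response genes 21 of 25 were higher and 2 lower, with a median of 1.78. Dusp1, which dephosphorylates p38 and JNK, had 834, 800.0, 693 and 705 CPM in WT lung, against 11, 11.9, 9.82 and 10.9 CPM in WT IL-15 spleen, a log2 change of 6.12 ± 0.14 (SE; adjusted p = 3.7e-09). Rgs1, which blunts chemokine receptor signalling, had 738, 612, 605 and 618 CPM in WT lung, against 35.8, 36.2, 36.9 and 35.2 CPM in WT IL-15 spleen, a log2 change of 4.16 ± 0.12 (SE; adjusted p = 1.25e-08). Dusp2 (3.19 ± 0.16), Dusp5 (3.16 ± 0.13), Spry2 (2.79 ± 0.12) and Sik1 (3.76 ± 0.21) were also higher. The prostaglandin E2 receptors split: Ptger4 rose (1.77 ± 0.11) and Ptger2 fell (−2.66 ± 0.22, 2.44 CPM in lung against 15.9 CPM in IL-15 spleen). The phosphodiesterase Pde3b also fell (−0.65 ± 0.16). Dusp6, a phosphatase for ERK, did not pass (76.9 CPM in lung against 74 CPM in IL-15 spleen). The cyclic AMP response element TGACGTCA was found upstream of 2 of the 17 genes with an entry (11.8%), Dusp1 and Dusp8, of 1.77% of all and of 3.11% of tested genes.
Dusp1 (chr17:26508568-26508655, minus strand): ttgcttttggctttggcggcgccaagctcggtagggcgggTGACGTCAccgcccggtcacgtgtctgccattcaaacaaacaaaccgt

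In the NF-κB list 10 of 18 were higher and 2 lower, with a median of 0.52. Tnfaip3, the deubiquitinase A20, had 2031, 3004, 3349 and 2894 CPM in WT lung, against 109.5, 84.5, 109.7 and 114 CPM in WT IL-15 spleen, a log2 change of 4.75 ± 0.2 (SE; adjusted p = 8.78e-08). Nfkbia, the inhibitor IκBα, changed by 2.65 ± 0.25 and Nfkbiz by 2.88 ± 0.14. The RNase gene Zc3h12a rose by 1.79 ± 0.12, and Tnip3 (0.0404 CPM in lung against 1.42 CPM in IL-15 spleen) and Traf1 fell, at −4.77 ± 0.89 and −0.35 ± 0.12. The call of Traf1 was lost without any 1 of 6 libraries (kept without lung replicate 1 or IL-15 replicate 3). Among the subunits, Rela (0.49 ± 0.11) and Relb (0.56 ± 0.11) were slightly higher (Rela neither with plain totals nor with the length and GC offset, at 0.08) and Nfkb1 (272 CPM in lung against 284 CPM in IL-15 spleen) did not pass.

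Genes of the glucocorticoid response moved apart, with 9 of 14 higher and 3 lower. Tsc22d3, which encodes GILZ, had 620.3, 472, 457 and 501 CPM in WT lung, against 81.6, 98.1, 56.2 and 72.6 CPM in WT IL-15 spleen, a log2 change of 2.73 ± 0.19 (SE; adjusted p = 1.54e-06), and Sgk1 changed by 3.35 ± 0.14. The metallothioneins Mt1 (−2.31 ± 0.29) and Mt2 (−2.86 ± 0.76) fell and Fkbp5 did not pass (119.8 CPM in lung against 116 CPM in IL-15 spleen). Ddit4 fell slightly (−0.32 ± 0.12). That call was lost without any library but IL-15 replicate 3. Of the clock genes 9 of 14 were higher and 1 lower. Per1, which both hormones and cyclic AMP can induce, had 353, 332, 403 and 439.6 CPM in WT lung, against 33.3, 27.8, 40.8 and 36.7 CPM in WT IL-15 spleen and a log2 change of 3.46 ± 0.16 (SE; adjusted p = 1.14e-07), Nr1d2 changed by 1.49 ± 0.13 and Arntl by −0.56 ± 0.15. The labels state no time of day of collection.

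**Figure D4:**
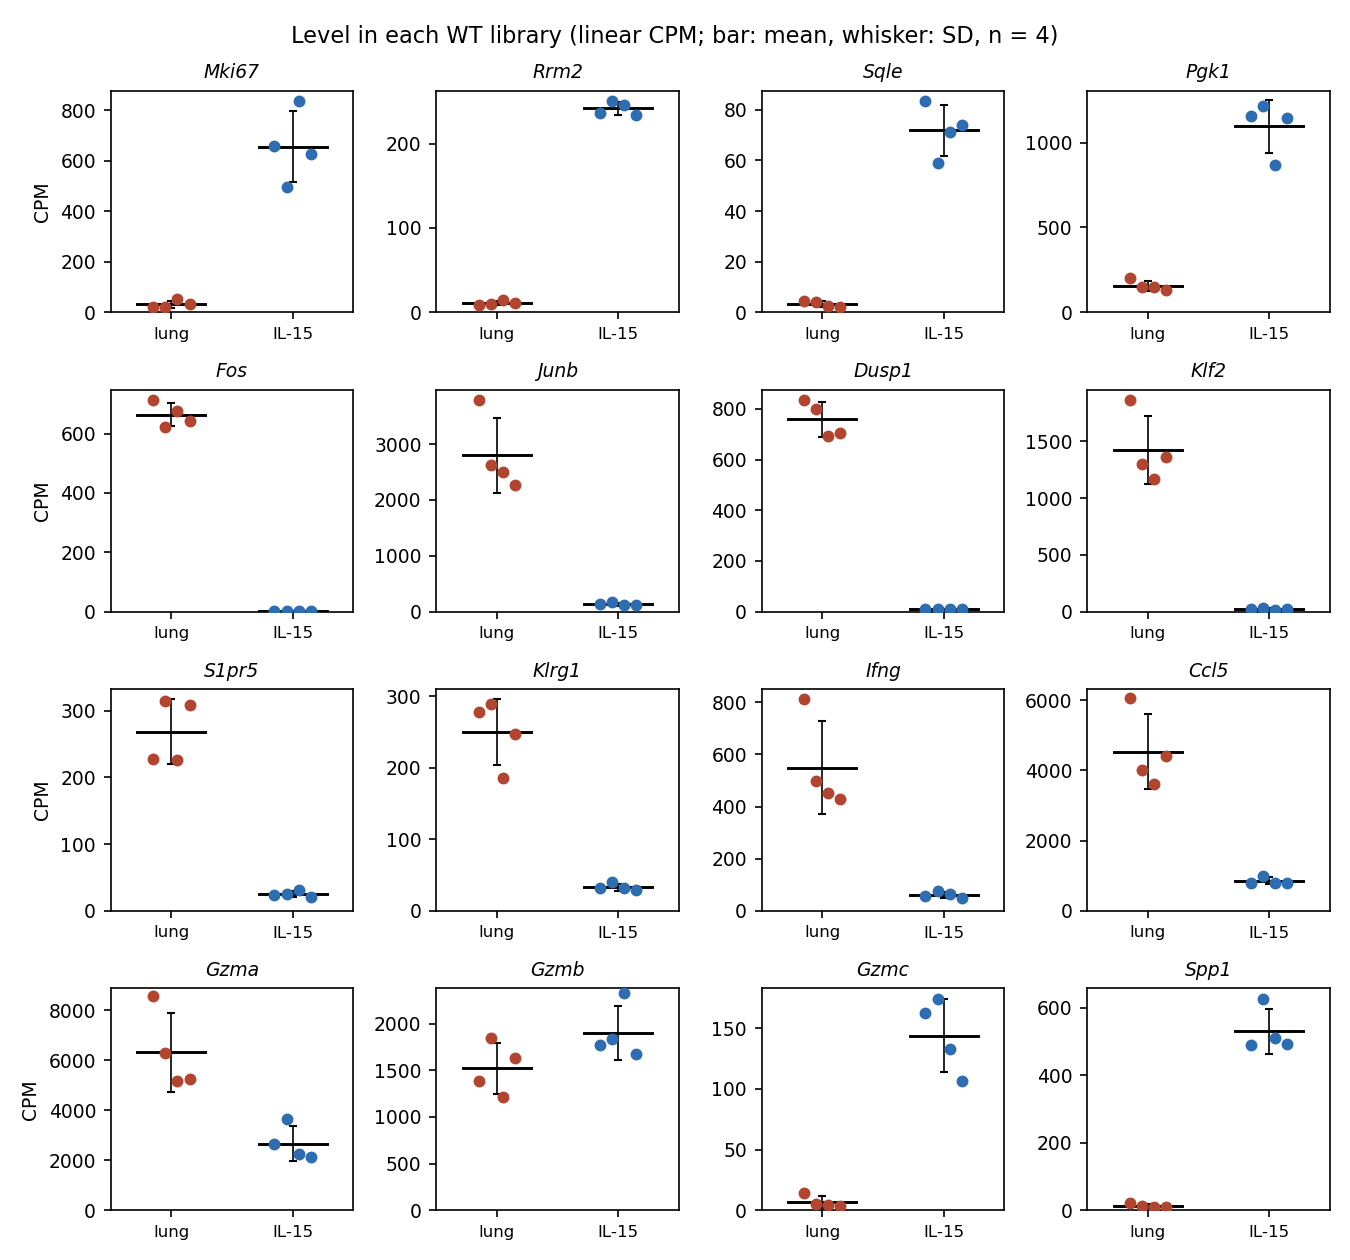
CPM in each WT library (vertical axes from 0) for 16 genes, WT lung left and WT IL-15 spleen right, with mean and SD of 4 libraries. The groups overlap for Gzmb and for no other gene shown.

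Genes of egress and homing were higher in WT lung in 18 of 23 cases and lower in 3, with a median of 1.71. Klf2, the factor that drives S1pr1, had 1864, 1303, 1167 and 1366 CPM in WT lung, against 21.7, 30.5, 16.3 and 24 CPM in WT IL-15 spleen. Lung replicate 1 was highest and every lung library was far above the IL-15 libraries, with a log2 change of 5.95 ± 0.25 (SE; adjusted p = 8.84e-08). The sphingosine 1-phosphate receptors S1pr1 and S1pr5 followed, S1pr5 with 227, 314, 225 and 308 CPM in WT lung, against 23.8, 25.2, 31.9 and 20.7 CPM in WT IL-15 spleen and a log2 change of 3.4 ± 0.18 (SE; adjusted p = 3.23e-07), S1pr1 with 3.2 ± 0.15. Cxcr4, the receptor for CXCL12, changed by 4.04 ± 0.2. Rasgrp2, an exchange factor for Rap1, changed by 3.4 ± 0.15. Cd69, which removes S1PR1 from the surface, rose with them, at 2.03 ± 0.17.

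Among chemokine receptors beside Cxcr4, Cx3cr1, of circulating mature cells, had 87.3, 116, 54.8 and 85.1 CPM in WT lung, against 0.515, 2.2, 2.42 and 0.937 CPM in WT IL-15 spleen, a log2 change of 5.84 ± 0.45 (SE; adjusted p = 3.96e-06). Macrophage and monocyte markers were also found in WT lung, and the part of such cells in the Cx3cr1 level was not tested. Ccr2, the receptor for CCL2, was lower, with 414, 456, 455 and 383 CPM in WT lung, against 1525, 1317, 1667 and 1582 CPM in WT IL-15 spleen and a log2 change of −1.83 ± 0.13 (SE; adjusted p = 1.87e-06). Cxcr3 (−1.24 ± 0.19) and Cxcr6 (−1.81 ± 0.35, 3.13 CPM in lung against 10.5 CPM in IL-15 spleen) fell as well.

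Maturation genes were mostly higher in WT lung, 16 of 22 against 3 lower, with a median of 1.65. Klrg1, an inhibitory receptor of terminally mature NK cells, had 278, 289, 186 and 247 CPM in WT lung, against 32.1, 39.9, 32 and 28.6 CPM in WT IL-15 spleen, a log2 change of 2.92 ± 0.17 (SE; adjusted p = 5.54e-07). Cma1, a chymase gene that mouse NK cells can also express, had 502, 359.6, 242 and 297 CPM in WT lung, against 4.06, 8.46, 4.47 and 4.29 CPM in WT IL-15 spleen, a log2 change of 6.05 ± 0.33 (SE; adjusted p = 3.75e-07). Itgam, which encodes CD11b, stood at 610.3 CPM in lung against 142 CPM in IL-15 spleen and changed by 2.1 ± 0.21, and Ly6c2 by 4.41 ± 0.2. Of the T-box factors, Tbx21 had 476, 524, 479 and 556 CPM in WT lung, against 119, 136, 114 and 115 CPM in WT IL-15 spleen (log2 2.07 ± 0.11 (SE; adjusted p = 3.67e-07)) and Eomes rose less, at 0.81 ± 0.13. Cd27, of less mature cells, did not pass (84.5 CPM in lung against 74.2 CPM in IL-15 spleen). Lgals3, galectin 3, and Emb, embigin, fell, at −1.94 ± 0.18 and −0.94 ± 0.16.

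The genes of type 1 innate lymphoid cells, residency and immaturity went the other way more often, with 13 of 28 lower and 4 higher. Kit, the stem cell factor receptor, had 41.1, 43.3, 34.1 and 43.2 CPM in WT lung, against 224, 165, 219.8 and 289 CPM in WT IL-15 spleen, a log2 change of −2.47 ± 0.17 (SE; adjusted p = 2.07e-06). Gpr34 had 0.238, 0.428, 0.162 and 0.275 CPM in WT lung, against 14.6, 8.46, 12.5 and 13.3 CPM in WT IL-15 spleen, a log2 change of −5.42 ± 0.34 (SE; adjusted p = 7.91e-07), and Inpp4b, a lipid phosphatase, changed by −4.18 ± 0.38. Itga1, which encodes CD49a, was low in both groups (7.31 CPM in lung against 18.5 CPM in IL-15 spleen) and lower in lung (−1.33 ± 0.26), and Tnfsf10, which encodes TRAIL, changed by −2.05 ± 0.18. Itgae and Zfp683, genes of resident lymphocytes, stood at 1.05 CPM in lung against 0.334 CPM in IL-15 spleen and 0.735 CPM in lung against 0.288 CPM in IL-15 spleen and did not pass. Il7r, the IL-7 receptor, rose (0.95 ± 0.21). Cd69, Eomes and Socs3 are also in this list and rose, at 2.03 ± 0.17, 0.81 ± 0.13 and 3.81 ± 0.12.

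Transcription factors of the lineage were higher in 16 of 32 cases and lower in 6. Irf8 had 2009, 2498, 2489.8 and 2832 CPM in WT lung, against 418, 398, 426 and 414 CPM in WT IL-15 spleen, a log2 change of 2.57 ± 0.14 (SE; adjusted p = 3.2e-07). Bhlhe40 (2.28 ± 0.15), Zeb2 (2.05 ± 0.21) and Runx3 (1.28 ± 0.11) were also higher. The repressor Bcl6 rose by 2.46 ± 0.14. Lef1 was lower (−0.83 ± 0.16) beside Hif1a (−0.71 ± 0.17), and Tcf7 (234 CPM in lung against 249 CPM in IL-15 spleen) and Id2 (677 CPM in lung against 743 CPM in IL-15 spleen) did not pass.

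Killing genes were largely higher in WT lung, 14 of 23 against 5 lower, but the granzymes did not move together. Gzma had 8541, 6289, 5159 and 5236 CPM in WT lung, against 2627, 3637, 2259 and 2109 CPM in WT IL-15 spleen, a log2 change of 1.25 ± 0.22 (SE; adjusted p = 0.0013). Per kilobase of exon its mean was 6269 CPM in WT lung and 2642 CPM in WT IL-15 spleen, against 1059 and 1322 CPM for Gzmb. Gzmb itself had 1390.3, 1847, 1216 and 1631 CPM in WT lung, against 1766, 1834, 2325 and 1669.6 CPM in WT IL-15 spleen, overlapping between groups and not called (log2 −0.32 ± 0.17 (SE; adjusted p = 0.151)). Gzmc, a granzyme of strongly activated killers, was lower, with 13.9, 5.31, 4.28 and 3.14 CPM in WT lung, against 163, 174, 133 and 107 CPM in WT IL-15 spleen and a log2 change of −4.54 ± 0.43 (SE; adjusted p = 1.58e-05). Prf1, perforin, stood at 1615 ± 379 CPM in WT lung and 861 ± 88.1 CPM in WT IL-15 spleen (mean ± SD; log2 0.91 ± 0.17 (SE; adjusted p = 0.00164)). Nkg7 (1.45 ± 0.17) and Serpinb9, an inhibitor of granzyme B (1.32 ± 0.14), rose, and Lyst (−1.5 ± 0.38), needed for granule maturation, fell. Gzmm rose by 2.37 ± 0.26, and Serpinb6a (−0.83 ± 0.17) and Lamp2 (−0.66 ± 0.14) fell (Lamp2 not with the length and GC offset). Gzmc lies in a cluster of similar granzyme genes, between which reads can be shared.

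Among TNF family genes 5 of 20 were higher and 8 lower (all tested genes, 22.2% higher and 20.9% lower). Fasl, the death ligand, had 398, 421, 414 and 378 CPM in WT lung, against 108, 119.6, 111 and 99 CPM in WT IL-15 spleen, a log2 change of 1.88 ± 0.11 (SE; adjusted p = 4.19e-07). Tnfsf8 (−3.37 ± 0.26) and the costimulatory receptor Tnfrsf9, which encodes 4-1BB (−1.27 ± 0.14, 174 CPM in lung against 420.4 CPM in IL-15 spleen), fell. The TNF receptors Tnfrsf1b (1.39 ± 0.11) and Tnfrsf1a (0.7 ± 0.1) rose.

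Of 20 tested cytokine and chemokine genes 11 were higher and 4 lower, with a median of 1.62. Ifng had 812, 498, 453 and 430.5 CPM in WT lung, against 56.1, 74.9, 66.5 and 50.5 CPM in WT IL-15 spleen. Lung replicate 1 was highest, and without overlap the log2 change was 3.15 ± 0.23 (SE; adjusted p = 2.74e-06). Ccl5 stood at 4525 ± 1067 CPM in WT lung and 853 ± 101 CPM in WT IL-15 spleen (mean ± SD), a log2 change of 2.41 ± 0.19 (SE; adjusted p = 4.01e-06), and Ccl3 and Ccl4 changed by 2.04 ± 0.17 and 2.0 ± 0.25. Spp1, osteopontin, was the reverse, with 21.1, 11.6, 9.38 and 10.8 CPM in WT lung, against 491, 628, 509.9 and 492 CPM in WT IL-15 spleen and a log2 change of −5.36 ± 0.27 (SE; adjusted p = 2.0e-07). Ccl1 was lower as well (0.557 CPM in lung against 15 CPM in IL-15 spleen), at −5.18 ± 0.59, and Xcl1 (387 CPM in lung against 399 CPM in IL-15 spleen) did not pass. Lif fell too, at −1.06 ± 0.26. Cxcl2 had no count in any IL-15 library and averaged 3.97 CPM in WT lung, where the neutrophil and macrophage markers above were also found.

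In the cytokine receptor and STAT list 8 of 28 were higher and 6 lower, near the shares of all tested genes (22.2% and 20.9%). Among the subunits through which IL-15 acts, Il2rb (2517 CPM in lung against 1972 CPM in IL-15 spleen), Il15ra (9.55 CPM in lung against 8.15 CPM in IL-15 spleen), Stat5a (61.1 CPM in lung against 55.6 CPM in IL-15 spleen) and Jak1 (1527 CPM in lung against 1238 CPM in IL-15 spleen) did not pass, and Il2rg rose by 0.5 ± 0.11 (not with plain totals). Several genes known to be induced through STAT5 were lower. Il2ra, which encodes CD25, had 1.91, 1.37, 1.9 and 2.04 CPM in WT lung, against 21.2, 12.5, 24.2 and 22.9 CPM in WT IL-15 spleen, a log2 change of −3.49 ± 0.26 (SE; adjusted p = 2.75e-06). Cish, a feedback inhibitor, stood at 22.8 ± 4.15 CPM in WT lung and 55.3 ± 6.1 CPM in WT IL-15 spleen (mean ± SD), a log2 change of −1.28 ± 0.15 (SE; adjusted p = 8.44e-05). Bcl2, the survival factor, changed by −1.08 ± 0.14 and Pim2 by −1.22 ± 0.13, while Pim1 rose by 1.04 ± 0.1. Socs3, induced through STAT3, had 272, 268, 260.4 and 239.5 CPM in WT lung, against 16.1, 18.9, 18.6 and 20.5 CPM in WT IL-15 spleen, a log2 change of 3.81 ± 0.12 (SE; adjusted p = 2.75e-08). Ifngr1, a chain of the interferon gamma receptor, rose by 1.43 ± 0.13, and the cytokine Osm by 1.27 ± 0.12.

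In the BCL2 family 7 of 16 were higher (4 without IL-15 replicate 1) and 2 lower. Mcl1, on which NK cell survival depends, rose by 0.6 ± 0.1 (586 CPM in lung against 387 CPM in IL-15 spleen), and the pro-death gene Bbc3 by 1.44 ± 0.15. Bcl2l2 fell, with Bcl2, at −0.78 ± 0.25. The call of Bcl2l2 was lost without lung replicate 2 or 3 or IL-15 replicate 1, 3 or 4. Reads of the Bcl2a1 copies cannot be assigned with certainty.

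Receptors and adaptors were divided. Of 30 NK receptors and ITAM adaptors outside the Ly49 family 12 were higher and 7 lower, with a median of 0.11. Among adaptors, Tyrobp, which encodes DAP12, rose by 1.26 ± 0.26, Cd247, which encodes CD3ζ, by 1.16 ± 0.14, and Hcst, which encodes DAP10, by 1.34 ± 0.39, beside Fcer1g above, while Sh2d1b2 fell, at −2.21 ± 0.34. Fcgr3, the Fc receptor that pairs with FcRγ, fell, at −0.69 ± 0.16 (66.9 CPM in lung against 108 CPM in IL-15 spleen). Crtam and Cd96 fell, at −1.21 ± 0.14 and −0.87 ± 0.15, while Klrk1, which encodes NKG2D, rose by 0.49 ± 0.12. Klrb1b rose by 1.44 ± 0.1. With plain totals Klrk1 no longer passed, and Hcst did not pass without IL-15 replicate 1 or 4. Klrd1 (449.9 CPM in lung against 488 CPM in IL-15 spleen) and Slamf7 (36.8 CPM in lung against 36.7 CPM in IL-15 spleen) did not pass. Of 12 tested Ly49 genes 5 were higher and 3 lower, from Klra10 (2.37 ± 0.35) to Klra5 (−1.26 ± 0.18). Klra9 (1.59 ± 0.16) and Klra13-ps (1.36 ± 0.25) were higher, and Klra6 (−0.58 ± 0.2) and Klra1 (−0.48 ± 0.17) lower. The call of Klra6 was lost without lung replicate 2 or IL-15 replicate 1, 2 or 4, and that of Klra1 without any library but lung replicate 1 or IL-15 replicate 3. Their near-identical sequences make the split of reads uncertain.

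Downstream of the receptors, 12 of 31 ITAM and calcium signalling genes were higher and 5 lower. Orai1, the store-operated calcium channel, had 138, 85.3, 81 and 81.7 CPM in WT lung, against 16.4, 23.4, 19 and 15.5 CPM in WT IL-15 spleen, a log2 change of 2.38 ± 0.21 (SE; adjusted p = 1.1e-05). Plcg1, which makes the messengers that release calcium, changed by 2.18 ± 0.24 and the kinase Lck by 0.87 ± 0.11. Lat rose by 1.53 ± 0.22, while the adaptor Lcp2 (SLP-76) and the exchange factor Rasgrp1 fell, at −0.63 ± 0.1 and −1.2 ± 0.2. Ubash3b, a phosphatase, also fell (−0.47 ± 0.1). Of 15 checkpoint and ectonucleotidase genes 5 were higher and 5 lower (3 lower without lung replicate 4 or IL-15 replicate 3). Over all tested genes the shares were 22.2% higher and 20.9% lower. Entpd1, which encodes CD39, rose (1.75 ± 0.27, 108 CPM in lung against 32.2 CPM in IL-15 spleen), and Lag3 (−1.83 ± 0.27), Havcr2 (−1.5 ± 0.44) and Tigit (−0.45 ± 0.16) fell. Tox fell as well (−0.69 ± 0.16), and Cd200 (3.51 ± 0.53, 2.73 CPM in lung against 0.235 CPM in IL-15 spleen) and 4632428N05Rik, which encodes VISTA, rose (0.81 ± 0.11). Havcr2 did not pass without lung replicate 4 or IL-15 replicate 3, and Tigit not without lung replicate 1, 3 or 4 or IL-15 replicate 3 or 4.

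Integrins and adhesion genes were higher in 15 of 24 cases and lower in 5, with a median of 0.97. Itgb3, the beta 3 integrin, was the strongest exception, with 26.7, 22.1, 20.3 and 18.7 CPM in WT lung, against 220.4, 205, 219 and 272 CPM in WT IL-15 spleen and a log2 change of −3.39 ± 0.15 (SE; adjusted p = 1.06e-07). Icam1 had 223, 229.7, 226 and 230.1 CPM in WT lung, against 76.7, 67.7, 69.3 and 66.9 CPM in WT IL-15 spleen, a log2 change of 1.69 ± 0.1 (SE; adjusted p = 5.04e-07), and Itgb2 and Itgb7 changed by 1.23 ± 0.15 and 1.71 ± 0.12. Alcam fell, at −1.17 ± 0.18. In the TGF-β list 10 of 23 were higher and 4 lower (7 without the 2 shallow libraries). Tgif1, a repressor of the pathway, rose (2.72 ± 0.11, 126 CPM in lung against 19.1 CPM in IL-15 spleen), as did Smad3 (1.31 ± 0.21). Lrrc33 (−0.7 ± 0.1), Ltbp3 (−1.02 ± 0.17) and Acvr2a (−0.89 ± 0.2) were lower. The rises of Eng, Id1 and Id3 ran from levels under 0.3 CPM in IL-15 spleen, and Eng is also an endothelial gene.

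Interferon-stimulated genes did not move one way, with 10 of 38 higher and 12 lower and a median of −0.15. Among all tested genes 22.2% were higher and 20.9% lower. Irf7 had 151, 145, 129 and 148 CPM in WT lung, against 32.2, 24.6, 32.6 and 29.9 CPM in WT IL-15 spleen, a log2 change of 2.26 ± 0.13 (SE; adjusted p = 3.87e-07), and Mx1 (1.29 ± 0.15) and Isg15 (1.35 ± 0.38) were higher. The GTPase genes Irgm2 (−1.46 ± 0.19), Tgtp2 (−1.06 ± 0.12) and Gbp4 (−0.93 ± 0.2) were lower. Oasl1 rose by 1.71 ± 0.27 and Ifi47 was lower, at −0.69 ± 0.11. Of 21 MHC class I and peptide loading genes 9 were higher and 2 lower (4 without the 2 shallow libraries). H2-K1 rose by 0.89 ± 0.14 and B2m by 0.45 ± 0.15, while the transporter Tap1 (−0.54 ± 0.11) and the immunoproteasome subunit Psmb9 (−0.7 ± 0.21) fell. B2m did not pass with plain totals or without lung replicate 2 or IL-15 replicate 1 or 4, and Psmb9 not without lung replicate 2, 3 or 4. The near-identical H2-Q4, H2-Q6 and H2-Q7 rose by 1.25 ± 0.13, 1.37 ± 0.15 and 1.02 ± 0.11, with an uncertain split of reads. Of 8 GIMAP genes 4 were higher and 1 lower with TMM scaling, but 1 higher and 3 lower with plain totals. Gimap9 (0.87 ± 0.13), Gimap8 (0.55 ± 0.15) and Gimap6 (0.43 ± 0.11) rose and Gimap7 (−0.82 ± 0.12) fell with TMM scaling, Gimap8 and Gimap6 not passing with plain totals. Of 28 proteasome genes 1 was higher (Psmc5) and 1 lower (Psmd12), and 5 and 5 without the 2 shallow libraries. The call of Psmc5 was lost without any library but IL-15 replicate 2, and that of Psmd12 without any library but lung replicate 1.

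Chaperones and their regulators outside the endoplasmic reticulum (ER), mostly cytosolic and with the mitochondrial Hspd1 and Hspe1 among them, rose in WT lung in 21 of 26 cases, with 0 lower and a median of 1.15. Hspa1a and Hspa1b, the inducible HSP70 genes, are near-identical and share reads. Hspa1b had 949.9, 672, 989 and 821 CPM in WT lung, against 3.72, 6.68, 5.36 and 5.26 CPM in WT IL-15 spleen, a log2 change of 7.36 ± 0.24 (SE; adjusted p = 2.82e-08). Hspa8, the constitutive HSP70, had 4968, 5411, 4219 and 5304 CPM in WT lung, against 2294, 2198, 2149 and 2217 CPM in WT IL-15 spleen, a log2 change of 1.17 ± 0.13 (SE; adjusted p = 5.42e-05). Dnaja1, a J-domain partner of HSP70, changed by 2.33 ± 0.12 and the HSP90 gene Hsp90aa1 by 1.85 ± 0.15. The chaperonin subunits Cct2, Cct4, Cct5 and Tcp1 did not pass. In the ER list 9 of 20 were higher and 0 lower, among them Dnajb9 (2.31 ± 0.12), Hspa5, which encodes BiP (1.42 ± 0.13), and Syvn1 (0.91 ± 0.11), while Xbp1 did not pass (123 CPM in lung against 125 CPM in IL-15 spleen).

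The same contrast in the KO libraries, which share no library with the WT ones, called 6991 of 13942 genes (50.1%). Of the 2881 genes higher in WT lung 2582 (89.6%) were also called higher in KO lung, which is 78.5% of the 3290 KO rises among genes tested in both. Of the 2706 lower genes 2380 (88.0%) were also called lower in KO, 72.9% of 3265. Called in opposite directions were 2 genes, Fcgr2b and Ubfd1. The WT call of Ubfd1 was lost without any library but lung replicate 1.

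The lung against IL-15 change itself differed between KO and WT for 19 genes (0.136% of 13942), 745 having an unadjusted p under 0.05. The count ranged from 4 to 28 when a library was left out (10 or fewer without any 1 of 11 of the 16 libraries, and 4 without WT IL-15 replicate 4, KO lung replicate 4 or KO IL-15 replicate 4), was 45 without the 2 shallow libraries and 70 with DESeq2. Fcgr2b, the inhibitory Fc receptor, had 6.4, 5.51, 5.22 and 5.45 CPM in KO lung and 7.45, 8.72, 8.76 and 10.2 CPM in KO IL-15 spleen, against 51.7, 70.7, 61.4 and 74.3 CPM in WT lung and 5.4, 1.91, 3.66 and 4.69 CPM in WT IL-15 spleen. Every WT lung library was above every library of the other 3 groups, and the difference, KO minus WT, was −4.66 ± 0.31 (SE; adjusted p = 2.12e-07). Fcgr2b lies at chr1:170960558-170976547 in the deposited annotation (GRCm38), on the chromosome of Fcer1g. Gm4955, also on chromosome 1 (chr1:173468509-173491041), had 2.47, 3.32, 2.83 and 2.83 CPM in KO lung and 0.840, 1.31, 1.41 and 1.25 CPM in KO IL-15 spleen, against 34.8, 42.4, 44.9 and 48.6 CPM in WT lung and 46.1, 41.1, 61.6 and 61.1 CPM in WT IL-15 spleen. It was low in both KO groups, and the difference was 1.53 ± 0.25 (SE; adjusted p = 0.017). Whether the chromosome shared with Fcer1g had a part in the differences of Fcgr2b and Gm4955 was not tested.

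Of the 19 genes, 9 belong to the 26 chaperone genes outside the ER: Stip1, Ahsa1, Hsp90ab1, the mitochondrial Hspd1, Hsph1, Dnaja1, Cacybp, Hsp90aa1 and Fkbp4. All 9 differences are negative. Of the 9, 2 to 9 were called when single libraries were left out, 4 or fewer without any 1 of 10 of the 16 libraries and 2 without WT IL-15 replicate 4, KO lung replicate 4 or KO IL-15 replicate 4. Stip1 and Ahsa1 were called in all 20 alternatives, and Hsph1 in 8. Stip1, which links HSP70 to HSP90, had 199.8, 155, 128 and 177 CPM in KO lung and 116, 132, 118 and 128 CPM in KO IL-15 spleen, against 392, 579, 347 and 476 CPM in WT lung and 127, 122, 115 and 117 CPM in WT IL-15 spleen. The IL-15 libraries of both genotypes lay together and the WT lung libraries were the highest, with a difference of −1.48 ± 0.21 (SE; adjusted p = 0.00433). Hsp90ab1, the constitutive HSP90, had 2171, 1828, 1946 and 1884 CPM in KO lung and 2026, 2123, 1830.0 and 2126 CPM in KO IL-15 spleen, against 3611, 4525, 3438 and 3947 CPM in WT lung and 2079, 2157, 1848 and 1977 CPM in WT IL-15 spleen, a difference of −0.99 ± 0.15 (SE; adjusted p = 0.0111). Hsph1, HSP110, changed by log2 1.32 in KO against 3.22 in WT, a difference of −1.9 ± 0.32 (SE; adjusted p = 0.0228). Ahsa1, an activator of HSP90, changed by log2 0.07 in KO against 1.13 in WT, a difference of −1.06 ± 0.15 (SE; adjusted p = 0.00433). The median over the 26 genes was 0.37 in KO in the fit of 16 libraries and 1.15 in WT in the fit of 8. Outside the list, the co-chaperones St13, Ptges3 and Ahsa2 were also among the 19, with differences of −0.89, −0.78 and −1.12. Gm7816 and Gm15459 are annotated as pseudogenes, whose reads may come from near-identical parent genes. The gap for Hspa1a and Hspa1b did not pass the test of the difference.

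**Figure D5:**
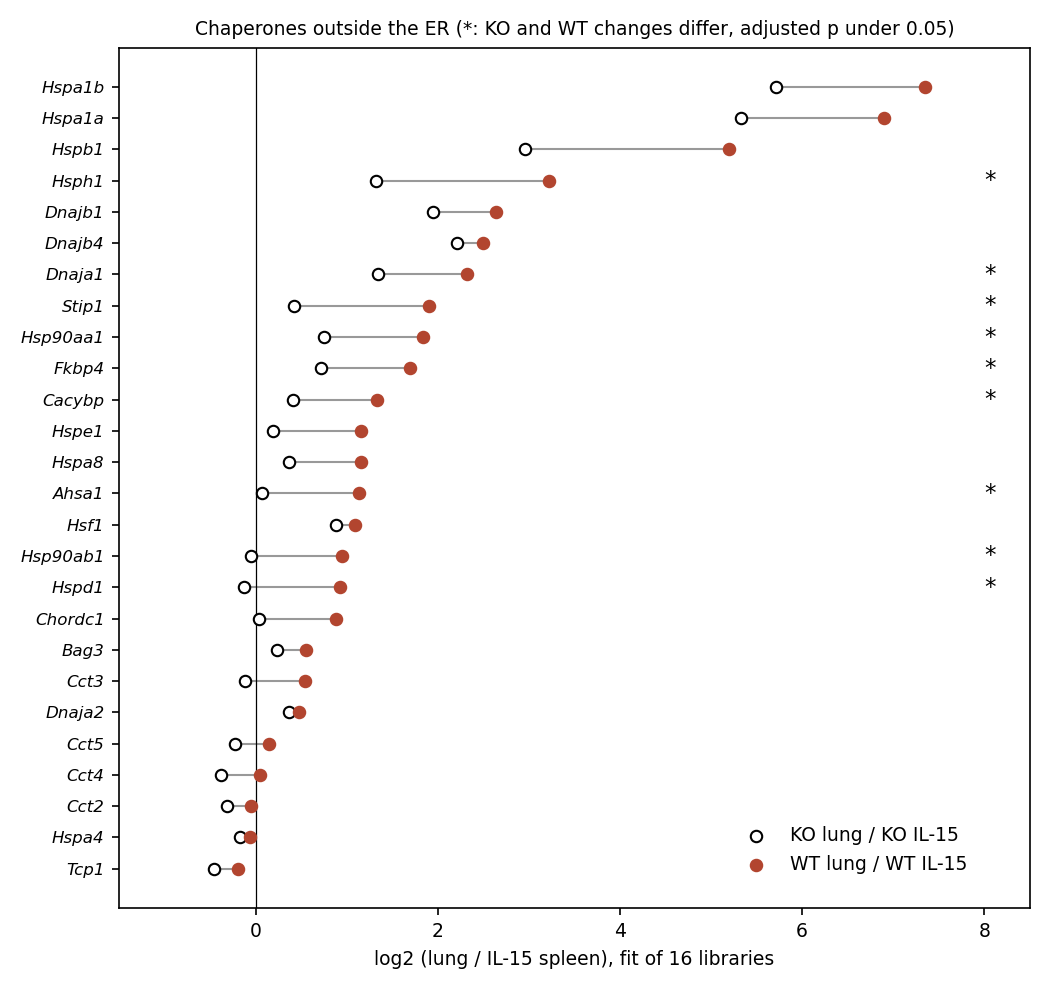
Log2 change, lung over IL-15 spleen, of 26 chaperone genes outside the ER in KO (open circles) and WT (filled circles), from the fit of 16 libraries. Stars mark the 9 genes whose KO and WT changes differed, all with the smaller change in KO.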

How the data were processed

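Poly(A) RNA of 24 mouse NK cell samples was sequenced after a directional library kit, per the labels' protocols. The deposited values are expected counts per gene, made by the authors with cutadapt 1.9, STAR 2.5.2a and RSEM 1.2.30 on GRCm38, per the submitters' processing notes, which give no role or order. Of these values 5.63% in the 8 libraries had a decimal part other than 0 as deposited (no tolerance), and all were rounded to whole counts.

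WT lung and WT IL-15 spleen (4 libraries each) were compared with edgeR 4.0.16 (R 4.3.3): TMM scaling, its default filter on low counts (12965 of 38215 genes kept), the quasi-likelihood test, and Benjamini-Hochberg adjustment over all genes, with 0.05 as threshold. The KO contrast and the KO minus WT difference came from a fit of 16 libraries (13942 genes). A standard error is the log2 change divided by the square root of F. Against a group at 0, folds use a floor of 3 counts over the group, and they cover counting error only. The tests were checked on simulated data.

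Members and gene lists were chosen with earlier results of these data known. Genes named are Fcer1g, the 12 largest changes each way with at least 10 CPM in the higher group and no overlap, up to 3 genes each way per list by smallest p, the 2 most abundant genes per marker list and the 10 genotype differences of smallest p. Predicted genes, receptor segments and other-cell markers were left out of the largest changes. Other genes named were chosen after their values were seen. A few genes are counted in the lists but not reported here. Marker sums were compared by exact two-sided permutation tests. Alternatives used other scalings, filters, sample sets, a 1.5-fold test, a replicate block, a length and GC offset, limma 3.58.1 voom, DESeq2 1.42.0 and each library left out. Leaving out both shallow libraries was added after seeing the data. Separate animals are stated only as biological replicates, so p-values measure the spread between these samples. Promoter stretches come from RefSeq (GRCm38.p6).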

Additional observations from a re-analysis of the deposited data

Results flagged for a closer look

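Among 4 libraries of a group, a library was marked where its gap to the nearest other exceeded Dixon's 95% critical share of the group's range. Of 714 groups of 4 values checked, 69 were marked, where chance marks about 1 in 20. The genes share libraries, so these marks are not independent.

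For whole libraries, WT lung replicate 1 had a total of 9.77 M counts and WT IL-15 replicate 2 of 21.2 M counts, both the lowest of their group. The highest mitochondrial share in WT IL-15 spleen was 2.78%. The plasma cell sum reached 74.3 CPM in WT lung replicate 1 and the macrophage sum was lowest at 88.2 CPM in WT lung replicate 3. In WT IL-15 spleen the highest mast cell and basophil sum was 13.2 CPM and the highest erythroid sum 0.423 CPM.

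The marked library was not the same for all genes. In WT lung a library stood above its group for Ccl4 at 1299.9 CPM, Cct5 at 479.6 CPM, Egr3 at 1.31 CPM, Fosl1 at 0.119 CPM, Gadd45b at 102 CPM, Gp1bb at 30.7 CPM and Hcst at 185 CPM. A high library also stood apart in WT lung for Hmmr at 4.17 CPM, Ifi47 at 144 CPM, Kif2c at 2.62 CPM, Mcpt8 at 0.0404 CPM, Orai1 at 138 CPM, Prf1 at 2176 CPM and Psmc5 at 89.5 CPM. Further single high values in WT lung were Psmd12 at 57.5 CPM, Ptges3 at 214 CPM, Rgs1 at 738 CPM, Sftpc at 19.6 CPM, Slamf7 at 47.7 CPM, Slc29a1 at 36.1 CPM and Srebf2 at 91.1 CPM. Further single high values in WT lung were Tnip3 at 0.162 CPM. In WT lung a library stood below its group for Bhlhe40 at 1197 CPM, Bop1 at 70.5 CPM, Dusp6 at 66.6 CPM, Gata2 at 1.74 CPM, Hspd1 at 361 CPM, Lyst at 14.8 CPM and Lyz2 at 47.1 CPM. Further single low values in WT lung were Pecam1 at 62.2 CPM, Ptger2 at 1.43 CPM, Tcp1 at 253 CPM and Zeb2 at 121 CPM. In WT IL-15 spleen a library stood above its group for Aqp1 at 0.0906 CPM, Ccl5 at 1004 CPM, Cdh5 at 0.0306 CPM, Cma1 at 8.46 CPM, Col4a1 at 0.0915 CPM, Dusp5 at 149.6 CPM and Entpd1 at 50.3 CPM. A high library also stood apart in WT IL-15 spleen for Fcer1g at 329.6 CPM, Gm7816 at 20.1 CPM, Gpr116 at 0.151 CPM, Kif2c at 47.9 CPM, Mcpt8 at 2.01 CPM, Ramp2 at 0.0306 CPM and Sdpr at 0.0908 CPM. Further single high values in WT IL-15 spleen were Serpinb6a at 57.4 CPM, Sparc at 0.0303 CPM, Spp1 at 628 CPM, Tyrobp at 416 CPM, Vwf at 0.0303 CPM, mt-Atp6 at 2614 CPM and mt-Rnr1 at 592 CPM. In WT IL-15 spleen a library stood below its group for Bcl6 at 9.42 CPM, Bub1b at 107 CPM, Cdkn1b at 124 CPM, Hsph1 at 51 CPM, Ighm at 116 CPM, Slc7a5 at 39.2 CPM and Tnfaip3 at 84.5 CPM. Further single low values in WT IL-15 spleen were Tob1 at 14.4 CPM.

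The lung against IL-15 change differed between KO and WT, by the test of the difference in edgeR, for genes of which the 10 with the smallest p, KO minus WT on the log2 scale, were Fcgr2b (−4.66), Gm7816 (−1.46), Stip1 (−1.48), Ahsa1 (−1.06), Hsp90ab1 (−0.99), Hspd1 (−1.05), Gm4955 (1.53), Hsph1 (−1.9), Ahsa2 (−1.12) and Bpnt1 (−1.17).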

How the results depend on the processing

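Against a 1.5-fold threshold 1354 genes were higher and 1238 lower. With plain library totals the calls were 2019 and 3707, and the higher share of calls was 35.3%, against 51.6% with TMM scaling. The added removal of WT lung replicate 1 and WT IL-15 replicate 2, chosen after seeing the data, gave 3893 and 3657, DESeq2 3552 and 2982, and voom 3968 and 3838. Leaving out single libraries gave 2442 to 3276 higher and 2144 to 3015 lower genes. The cause of these shifts was not tested.

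The KO minus WT difference was called for 8 genes with the replicate block, 70 with DESeq2, 45 without the pair of shallow libraries and 4 to 28 when single libraries were left out. Of 302 called genes named here, 244 were called in each of 21 settings, and 58 were lost against the 1.5-fold threshold. Plain totals lost 13 of them (B2m, Cyc1, Ftl1, Gata3, Gimap6, Gimap8, Il2rg, Klrk1, Psmc5, Rela, Ubfd1, Ubtf and Wars). The length and GC offset lost 10 (Bop1, Ccnd3, Klra6, Lamp2, Ncl, Psmd12, Rela, Tigit, Traf1 and Ubtf). The fit of all 24 libraries lost 5 (B2m, Ddit4, Havcr2, Ubfd1 and Ubtf), and no filter lost 5 (Cyc1, Ddit4, Psmc5, Psmd12 and Ubfd1). Cyc1 turned to −0.0695 with the length and GC offset, and the dendritic cell marker sum, lung minus IL-15, to −22.4 CPM with plain totals.

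Deviations within the groups did not follow replicate numbers throughout. The correlations of same-numbered lung and IL-15 libraries' deviations were 0.007, −0.405, 0.290 and 0.274, while lung replicate 1 correlated with IL-15 replicate 2 at 0.621. Those shallow libraries also stood apart together on the second principal component, so the correlations cannot decide whether the numbers mark pairs. With the replicate block 2568 genes were higher and 2369 lower, 9 of the named calls were lost (B2m, Ddit4, Gata3, Klra6, Psmd12, Tigit, Traf1, Ubfd1 and Ubtf), and 4 of the 9 chaperone differences were called. Depth limits genes under a few counts, most in WT lung replicate 1.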

Other observations

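Melanocyte marker genes summed to 4.64, 27.5, 22 and 2.87 CPM in the WT lung libraries, against 3.33, 0.412, 2.94 and 3.93 CPM in WT IL-15 spleen. Lung replicates 2 and 3 were above all others, and the groups overlapped. Dct, Tyrp1 and Tyr, which encode enzymes of melanin synthesis, had no count in any IL-15 library and averaged 4.88, 1.79 and 0.455 CPM in WT lung. The labels do not name the tumour.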
